A study of Mus musculus with 8 samples.

Results

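The endothelin genes described here are the endothelin receptors Ednrb and Ednra, the ligands Edn1 and Edn3, and the converting enzymes Ece1 and Ece2. They were named from the pathway and not by a cut on a measured value, although earlier results of these data were known when they were chosen. They are 6 of the 35975 genes to which the transcripts of the deposited tables were summed. In this comparison, Ednrb, Ednra and Edn1 were higher in the iron positive fraction of a mouse fibrosarcoma by 9.87-fold (Edn1) to 31-fold (Ednrb). Ece1 did not pass on the fraction alone but passed when the fit also matched libraries by the tag in their labels. Ece2 and Edn3 were too low to be tested. Among the 4 iron positive libraries, Ednrb was highest where the heme genes Hmox1 and Cd163 were highest, and Ednra, Edn1 and Ece1 were highest where the vascular genes Pecam1 and Cdh5 were highest.

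Subcutaneous syngeneic fibrosarcomas from WT C57BL/6 mice were digested with collagenase and DNase, red cells were lysed, and the suspension was run over magnetic columns. Iron positive libraries came from the eluate that the columns had retained, and iron negative libraries from the flowthrough. Total RNA of 4 iron positive and 4 iron negative samples was sequenced in bulk, and each fraction carries the tags 3L, 3R, 4R and 5L. All groups share genotype and tumour type, the labels give neither age nor the name of the tumour line, and although the series title speaks of macrophages, no antibody selection is named. Whether the tags are separate animals is not said in the labels, so a p-value here reflects only the spread among these samples, which may be technical. In bulk RNA, fewer cells of a type and less RNA per cell cannot be told apart.

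Endothelins are small peptide hormones of the vessel wall. A precursor is cut by furin-type proteases to an inactive intermediate, which endothelin-converting enzymes such as ECE1 trim to the active peptide. EDNRA, mainly known from smooth muscle and pericytes, drives contraction through Gq-coupled calcium release, whereas EDNRB on endothelium releases nitric oxide and takes up circulating peptide, and in the embryo guides melanocyte and enteric nerve precursors.

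The stretch of each ligand gene that encodes the mature peptide is shown first because it is what separates the ligands. The sequences are those of the GENCODE transcripts on GRCm38, plus strand, 5′ to 3′, and all lie in the coding part of exon 2. Capitals mark bases that differ from Edn1. The stretches are chr13:42303649-42303711 (Edn1), chr4:120161951-120162013 (Edn2, the ligand that is not among the 6 genes) and chr2:174761749-174761811 (Edn3).
Edn1 peptide: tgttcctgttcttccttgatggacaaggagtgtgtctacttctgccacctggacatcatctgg
Edn2 peptide: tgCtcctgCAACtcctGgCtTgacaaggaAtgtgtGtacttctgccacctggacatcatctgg
Edn3 peptide: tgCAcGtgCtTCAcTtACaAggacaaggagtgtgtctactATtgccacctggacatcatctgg
Edn2 was the same as Edn1 at 53 of 63 bases (84.1%) and Edn3 at 50 of 63 (79.4%), and each stretch ends in TGG, the codon after which ECE1 cuts the intermediate. No run of 31 bases, the default match length of kallisto, which made the tables, was shared between any of the endothelin genes.

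The promoters of the genes that changed are shown because Ednra and Edn1 followed one order across libraries and Ednrb another. Each is 250 bases before to 50 after the RefSeq start, on the strand of the gene, 5′ to 3′, from RefSeq on GRCm38.p6. They are chr14:103843652-103843951 (Ednrb, minus strand), chr8:77724403-77724702 (Ednra, minus strand) and chr13:42301226-42301525 (Edn1, plus strand). Capitals mark matches, on either strand, to the searched motifs AP-1 (TGANTCA), the motif of GATA factors (GATAAG), the cores of the hypoxia (ACGTG) and antioxidant (TGANNNNGC) response elements, SOX (ACAAAG), ETS (AGGAAG), the TATA box (TATAAA) and the SP1 box (GGGCGG). AP-1 and the antioxidant core can overlap, since both start with TGA.
Ednrb promoter: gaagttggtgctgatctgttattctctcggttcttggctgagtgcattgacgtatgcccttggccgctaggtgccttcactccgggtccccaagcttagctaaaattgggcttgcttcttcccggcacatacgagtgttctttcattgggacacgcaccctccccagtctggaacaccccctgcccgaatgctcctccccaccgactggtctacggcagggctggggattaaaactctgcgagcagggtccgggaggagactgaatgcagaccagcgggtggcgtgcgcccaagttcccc
Ednra promoter: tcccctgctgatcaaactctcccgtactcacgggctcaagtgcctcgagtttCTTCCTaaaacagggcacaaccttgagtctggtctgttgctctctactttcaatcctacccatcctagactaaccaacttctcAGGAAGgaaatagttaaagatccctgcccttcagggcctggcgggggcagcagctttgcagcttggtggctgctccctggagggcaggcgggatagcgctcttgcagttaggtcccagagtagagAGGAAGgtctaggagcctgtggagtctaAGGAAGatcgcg
Edn1 promoter: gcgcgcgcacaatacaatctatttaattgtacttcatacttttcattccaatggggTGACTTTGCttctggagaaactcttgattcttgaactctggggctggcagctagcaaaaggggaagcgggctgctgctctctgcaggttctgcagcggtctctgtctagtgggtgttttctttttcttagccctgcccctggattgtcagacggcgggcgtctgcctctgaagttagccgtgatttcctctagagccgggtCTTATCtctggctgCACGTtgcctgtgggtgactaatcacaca
Counted from 0 at the start base to the first base of the match, Ednra held 4 ETS matches, at -198, -115, 10 and 38. Edn1 held 1 antioxidant core at -194, 1 GATA match at 7 and 1 hypoxia core at 21. Of the 32851 mouse promoters in the same table, 35.4% held the ETS letters, 41.3% the antioxidant core, 7.44% the GATA letters and 19.6% the hypoxia core. None of the 8 motifs occurred in the Ednrb window, where 7.81% (AP-1), 18.7% (SOX), 13.6% (TATA) and 35.7% (SP1) of all promoters held the others. A match is only these letters in this window.

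Libraries held 19.04 to 24.31 M estimated counts. Levels below are CPM, estimated counts scaled for library depth with TMM factors, unless TPM, which also accounts for transcript length, is named. A positive log2 fold change means a higher level in iron positive libraries and is given with its SE. Adjusted p-values are from edgeR's quasi-likelihood test, Benjamini-Hochberg adjusted over the 13343 genes that passed the filter on low counts, 4 of the 6 endothelin genes among them. Over all genes tested, 1133 (8.49%) were higher and 695 (5.21%) lower at an adjusted p under 0.05, with a median log2 fold change of -0.01. The share of calls that were higher was 62% with TMM, 76.4% with library totals and 98.6% with scaling to macrophage genes, which moved the median of all genes by 0.32. Macrophage markers had the highest summed level of the 12 marker lists examined, 25145 to 33675 CPM in iron positive and 33568 to 36999 CPM in iron negative libraries, and of its 15 genes 0 rose in edgeR (also 0 at an unadjusted p under 0.05) and 5 fell, or 0 and 10 with the tag as a block and 0 and 9 in DESeq2. Limma voom called 0 of the 15 higher and 2 lower. The macrophage scaling centres this list by construction.

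Of the 4 endothelin genes tested, 3 were higher and none lower. In the same 3 genes every iron positive library lay above every iron negative one, which held for 11.2% of all genes tested. Without any 1 of the iron negative libraries 3L, 3R, 4R or 5L, 0 of the 4 passed in edgeR, where the adjusted p was 0.0525 to 0.063 for Ednrb, 0.0603 to 0.0766 for Ednra and 0.0518 to 0.063 for Edn1, and all 4 had an unadjusted p under 0.05. DESeq2 on the same libraries called 3 in each case.

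Ednrb, the receptor that binds all endothelins alike, had 153, 36, 113 and 14.2 CPM in the iron positive libraries 3L, 3R, 4R and 5L, against 4.02, 1.48, 3.41 and 1.26 CPM in the iron negative libraries with the same tags. The fractions did not overlap, and both ran 3L, 4R, 3R, 5L from high to low. Ednrb averaged 79.1 ± 65 CPM in iron positive and 2.54 ± 1.38 CPM in iron negative libraries (SD, n = 4 each), and its log2 fold change was 4.95 ± 0.81 (adjusted p = 0.0173). By tag, the iron positive library exceeded its iron negative counterpart by 5.23 (3L), 4.56 (3R), 5.03 (4R) and 3.45 (5L) log2 units. The difference was thus smallest in 5L, although the level itself varied 10.7-fold among the iron positive libraries. The gene lies at chr14:103814625-103844402 on the minus strand (GRCm38, the assembly of mm10).

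Ednra, the receptor for Edn1 and Edn2 on contractile cells, was much lower. Its levels were 1.45, 16.5, 9.42 and 2.42 CPM in iron positive 3L, 3R, 4R and 5L, against 0.398, 0.877, 0.448 and 0.696 CPM in the iron negative libraries in the same order of tags. Iron positive 3R and 4R stood well above 3L and 5L, and the lowest iron positive value still exceeded the highest iron negative one. Ednra averaged 7.44 ± 7 CPM in iron positive and 0.605 ± 0.224 CPM in iron negative libraries (SD, n = 4 each), and its log2 fold change was 3.61 ± 0.79 (adjusted p = 0.0238). The same-tag differences were 1.74 (3L), 4.16 (3R), 4.25 (4R) and 1.73 (5L) log2 units. The iron negative values rest on 9 to 18 estimated counts a library. Without iron positive 3R, its highest library, the log2 fold change was 2.87 (adjusted p = 0.0298). Without iron positive 4R the log2 fold change was 3.48 with adjusted p = 0.0611, and on log2(TPM + 0.1) it was 2.67 with adjusted p = 0.0531 (limma). Ednra lies at chr8:77663031-77724464, minus strand.

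Edn1, the main endothelin of endothelial cells, had 5.88, 33.2, 26.6 and 13.6 CPM in iron positive 3L, 3R, 4R and 5L, against 1.86, 2, 1.93 and 2.22 CPM in iron negative libraries of the same tags. The iron negative values were nearly level, with a highest value 1.19 times the lowest, and the iron positive ones spread 5.64-fold. Edn1 averaged 19.8 ± 12.3 CPM in iron positive and 2 ± 0.157 CPM in iron negative libraries (SD, n = 4 each), and its log2 fold change was 3.30 ± 0.50 (adjusted p = 0.0173). The same-tag differences were 1.64 (3L), 4.02 (3R), 3.75 (4R) and 2.59 (5L) log2 units, so that the tag with the largest Ednrb difference had the smallest Edn1 difference. Edn1 lies at chr13:42301476-42307990, plus strand, and has 1 annotated transcript in the tables.

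Edn3, the ligand that works through EDNRB in neural crest development, was at the edge of detection. It had 1 estimated count in iron positive 3L, 5 in iron positive 4R, and 0 in the other iron positive and in all iron negative libraries. The 5 counts fell on Edn3-204, a transcript annotated without a coding sequence, and the single count on the coding Edn3-201. A count of 0 allows up to 3 counts, or 0.13 to 0.151 CPM in these libraries, for counting error only. Edn2 had 2 estimated counts, in iron positive 3R, and 0 elsewhere. Of the ligand TPM, Edn1 therefore held 98.7% to 100% in iron positive libraries and 100% in each iron negative one.

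**Figure D1:**
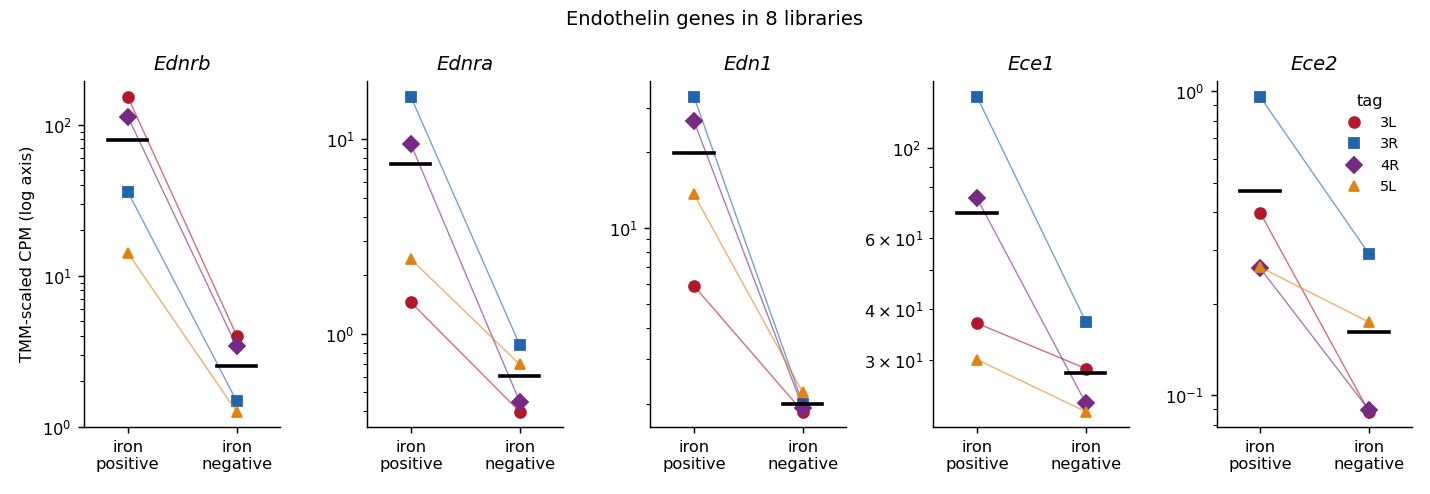
Levels of 5 endothelin genes in each library, as TMM-scaled CPM on log axes that differ between panels, with iron positive left of iron negative, lines joining equal tags and bars at the mean of 4 libraries. Ednrb, Ednra and Edn1 do not overlap between fractions, and tag 3L is the highest iron positive library for Ednrb and the lowest for Ednra and Edn1.

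Ece1, the membrane protease that makes the active peptide, had 36.9, 134, 75.2 and 30 CPM in iron positive 3L, 3R, 4R and 5L, against 28.5, 37.2, 23.4 and 22.3 CPM in iron negative libraries with those tags. Iron positive 3L and 5L lay below iron negative 3R, so the fractions overlapped in CPM, but each iron positive library exceeded its same-tag counterpart, by 0.37 (3L), 1.85 (3R), 1.68 (4R) and 0.42 (5L) log2 units. Ece1 averaged 69.1 ± 47.9 CPM in iron positive and 27.9 ± 6.77 CPM in iron negative libraries (SD, n = 4 each), and its log2 fold change was 1.31 ± 0.45 (adjusted p = 0.0874). With the tag as a replicate block the value was 1.10 ± 0.28 with adjusted p = 0.0329, in a fit that called 12.8% of all genes higher and 9.39% lower and all 4 endothelin genes tested. It also passed under the macrophage scaling (1.71, adjusted p = 0.0324), which called 4378 of the 13343 genes higher, and without iron positive 5L (1.56, adjusted p = 0.0329). Of 28 alternative settings, Ece1 passed in 5. Without iron positive 3R, its highest library, the value was 0.77 (adjusted p = 0.146). DESeq2 (adjusted p = 0.0583) and limma voom (adjusted p = 0.163) on all libraries did not call it. Ece1 lies at chr4:137862237-137965229, plus strand.

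Ece2, a related enzyme best known from neurons, had 8, 19, 6 and 6 estimated counts in iron positive 3L, 3R, 4R and 5L, against 2, 6, 2 and 4 in the iron negative libraries of those tags. These are 0.399, 0.958, 0.262 and 0.264 CPM in iron positive and 0.0884, 0.292, 0.0896 and 0.174 CPM in iron negative libraries, which overlap. Ece2 at chr16:20629828-20646485 (plus strand) is uncertain. It overlaps the predicted gene Gm49333 on the same strand, and 55.8% of its 31-base runs occur in other genes, mostly that one, which was listed at 0 in all libraries. Of the converting enzyme TPM, Ece1 held 98% to 99.6% in iron positive and 96.7% to 99.5% in iron negative libraries.

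Levels can be compared between the genes only per length, in TPM. In iron positive libraries Ednrb (30.6 ± 24.7 TPM) and Ece1 (29.9 ± 20.7) led, followed by Edn1 (13.6 ± 8.82), Ednra (2.9 ± 2.77), Ece2 (0.438 ± 0.51) and Edn3 (0.0663 ± 0.119; SD, n = 4 each), and every pair of neighbours in that order overlapped across libraries. In iron negative libraries Ece1 (10 ± 2.32 TPM) stood clear of Edn1 (1.3 ± 0.119). Edn1 overlapped Ednrb (1.02 ± 0.506), which stood clear of Ednra (0.22 ± 0.0837), and Ednra overlapped Ece2 (0.167 ± 0.188). Edn3 was listed at 0. Part of the Ece1 TPM rests on transcripts with few estimated counts. In iron positive 3R, 12 estimated counts on Ece1-202 gave 9.41 TPM. The main transcript Ece1-201 alone had 9.16, 37.3, 21.4 and 7.73 TPM in iron positive 3L, 3R, 4R and 5L. The whole gene had 15.2, 59.1, 30.3 and 15 TPM there.

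Ednrb exceeded Ednra in TPM in all 8 libraries. Its share of the receptor TPM was 99.1%, 68.4%, 92.4% and 86.4% in iron positive 3L, 3R, 4R and 5L, against 91.5%, 66.6%, 89.4% and 67.7% in the iron negative libraries of the same tags. Both fractions had their highest share in 3L and their lowest in 3R. The share was higher in the iron positive library of each tag, but the fractions overlapped, at 86.6 ± 13.2% in iron positive and 78.8 ± 13.5% in iron negative libraries (SD, n = 4 each).

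The order of the iron positive libraries set Ednrb apart from the rest. Against its 3L, 4R, 3R, 5L, Hmox1, the heme-degrading enzyme, and Cd163, the receptor for haptoglobin-bound hemoglobin, both ran 3L, 4R, 5L, 3R. Edn1 and Ednra ran 3R, 4R, 5L, 3L, as did Pecam1, an adhesion protein of endothelium and some leukocytes, and Cdh5, the cadherin of endothelial junctions. Ece1 ran 3R, 4R, 3L, 5L. These are orders of 4 libraries and carry no test.

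For reference, Hmox1 had 5174, 700, 4230 and 1455 CPM in iron positive 3L, 3R, 4R and 5L, and 482 to 871 CPM in iron negative libraries. Cd163 had 215, 27.8, 91.2 and 53.9 CPM in the iron positive libraries and 13.2 to 28.5 CPM in iron negative ones. Pecam1 had 46.5, 256, 151 and 48.7 CPM in the iron positive libraries and 21.5 to 32.5 CPM in iron negative ones. The heme genes thus fell to their lowest iron positive level in 3R, where Pecam1 and Cdh5 peaked. Cdh5 had 40.7, 371, 192 and 43.4 CPM in the iron positive libraries and 5.83 to 15.5 CPM in iron negative ones.

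**Figure D2:**
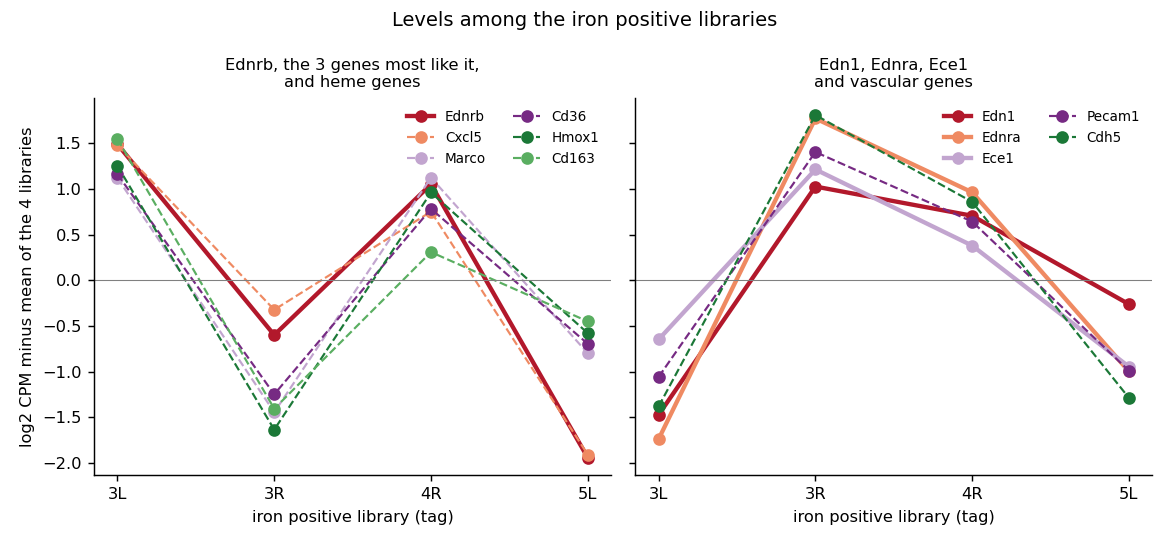
Log2 CPM of each gene minus its mean over the 4 iron positive libraries (vertical axis), by tag (horizontal axis), with endothelin genes as solid lines. Ednrb stands at 1.49 in 3L and -1.94 in 5L and runs with Cxcl5, whereas Edn1, Ednra and Ece1 stand at 1.03 to 1.77 in 3R and fall below their mean in 3L, as Pecam1 and Cdh5 do.

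Genes were also ranked by how like their profile was to that of an endothelin gene, by the root mean square difference of log2 CPM centred over all 8 libraries, among 11779 genes of at least 1 CPM on average. The measure uses the fraction difference and the spread within fractions together, and a rank is a description. Nearest to Ednrb were Cxcl5, a neutrophil-attracting chemokine, at 0.48 log2 units, Marco, a macrophage scavenger receptor, at 0.61, and Cd36, a receptor for fatty acids and oxidised lipoprotein, at 0.69. Cxcl5 had 25.8, 7.41, 15.6 and 2.47 CPM in iron positive 3L, 3R, 4R and 5L and 0.361 to 0.763 CPM in iron negative libraries, the same order as Ednrb. Hmox1 (rank 174), Cdh5 (175), Cd163 (190), Edn1 (230), Ednra (461) and Pecam1 (547) were all farther from Ednrb, at 1.60 to 1.90 log2 units. By this measure over both fractions, Ednrb was no nearer to Hmox1 than to Cdh5.

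The genes nearest to Edn1 were Thsd1, a thrombospondin-domain membrane protein, at 0.26 log2 units, Lhx6, a LIM homeobox factor, at 0.26, and Ctla2a, a cysteine protease inhibitor, at 0.27. Thsd1 was also nearest to Ednra, at 0.28, before Itgb3, the integrin beta 3 chain, at 0.30 and Nrep, the neuronal regeneration related protein, at 0.31. Ednra itself was 0.48 log2 units from Edn1 (rank 40). Nearest to Ece1 were Pdia5, a disulfide isomerase of the endoplasmic reticulum, at 0.18, Creb3l2, a membrane-bound transcription factor of the secretory pathway, at 0.20, and Slc12a2, a sodium, potassium and chloride cotransporter, at 0.20. Pecam1 was at rank 378 from Ece1 and the other 3 reference genes at ranks 11451 to 11493, each with a larger log2 fold change than that of Ece1.

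Markers of other cell types moved with these results, and their part in them was not tested. All 13 endothelial markers rose, with a summed level of 227 to 1666 CPM in iron positive and 69.4 to 114 CPM in iron negative libraries and the order 3R, 4R, 5L, 3L that Edn1 and Ednra also had. Of 11 pericyte and smooth muscle markers 8 rose (98.1 to 759 CPM in iron positive, 29.3 to 63.1 CPM in iron negative libraries), as did 6 of 11 tested fibroblast and fibrosarcoma markers, or 10 with the tag as a block (535 to 5035 CPM in iron positive, 143 to 430 CPM in iron negative libraries), again in that order. These calls depend on the fit. Limma voom called 0 of the 13 endothelial, 1 of the 11 pericyte and smooth muscle and 1 of the 11 fibroblast markers. Without iron negative 3L, 3R or 4R, edgeR called 0 genes of the whole table. None of the 3 tested Schwann cell and melanocyte markers was called (0 with an unadjusted p under 0.05 in edgeR, and 0 called by DESeq2), Sox10 had no count in any library, and the sum was 3.13 to 5.31 CPM in iron positive and 2.38 to 2.63 CPM in iron negative libraries. The lymphatic endothelial sum ran 3L, 4R, 3R, 5L, the order of Ednrb, at 56.7 to 135 CPM in iron positive and 19 to 44.8 CPM in iron negative libraries. Of its 3 genes tested 1 rose, Flt4 (all 3 with the tag as a block), and its defining marker Prox1 was at 0 to 0.353 CPM in iron positive and at 0 in iron negative libraries. The sum mixes genes of different order. Pdpn had 93.7, 23.6, 72.4 and 41.5 CPM in iron positive 3L, 3R, 4R and 5L and Lyve1 37.1, 3.28, 8.89 and 10.5 CPM, whereas Flt4 had 3.39, 31.2, 18.4 and 4.75 CPM and peaked in 3R, the library in which both others were lowest. Pdpn and Lyve1 are also made by some macrophages.

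Ratios within a library do not depend on how libraries are scaled, but they do depend on the unit and on the value added to low levels. They were taken as log2 of TPM + 0.1 for the endothelin gene over the same for the reference gene, for 16 pairs, and tested by an exact two-sided permutation test over libraries. With 4 against 4 libraries the smallest possible p is 0.0286, and none of the 16 passed after Benjamini-Hochberg adjustment (smallest adjusted p = 0.114). Over 16 pairs, a ratio at that smallest p can pass only if many others reach it too. A few ratios that fully separated the fractions therefore could not pass.

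Relative to Hmox1, Ednrb stood at -6.37, -5.69, -6.56 and -7.96 log2 units in iron positive 3L, 3R, 4R and 5L, against -8.96, -9.35, -8.52 and -10.07 in the iron negative libraries of the same tags. The fractions did not overlap, and the difference of their means was 2.58 (exact permutation p = 0.0286, adjusted p = 0.114). Relative to Cd163, Ednrb was higher in iron positive libraries by 2.44 (exact permutation p = 0.0286, adjusted p = 0.114), or by 1.72 with overlap when 1 TPM was added. Over Hmox1 the difference was 1.73 with 1 TPM added, still without overlap. Ednrb TPM came to 32.7% to 149% of Cd163 TPM in iron positive and 6.01% to 27% in iron negative libraries. Over the vascular genes the Ednrb ratio was unsteady. It was 1.65, -2.99, -0.57 and -1.82 over Pecam1 in iron positive 3L, 3R, 4R and 5L, a range of 4.64 log2 units against 2.27 for its ratio over Hmox1, and the fractions overlapped (difference 2.49, exact permutation p = 0.0571, adjusted p = 0.152).

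The ratio of Ednra to Cdh5 varied little among iron positive libraries, but how the fractions compared depended on the unit and the added value. It was -4.52, -4.34, -4.20 and -3.99 in iron positive 3L, 3R, 4R and 5L, against -4.48, -3.79, -4.25 and -4.38 in iron negative libraries with those tags, and the difference was -0.04 (exact permutation p = 0.857, adjusted p = 0.857). Ednra TPM was 3.67% to 5.68% of Cdh5 TPM in iron positive and 2.65% to 5.62% in iron negative libraries. In CPM it was 3.55% to 5.58% of Cdh5 in iron positive and 5.26% to 11.9% in iron negative libraries, and the log2 fold change was 3.61 for Ednra and 4.19 for Cdh5. The difference was 0.35 with 0.01 TPM added (exact permutation p = 0.257, adjusted p = 0.457), -1.16 with 1 TPM added (exact permutation p = 0.0286, adjusted p = 0.152) and -0.67 from estimated counts (exact permutation p = 0.0571, adjusted p = 0.114). With 1 TPM added the Ednra differences over Pecam1, Hmox1 and Cd163 also turned negative (-0.43, -0.42 and -0.43, against 0.78, 0.87 and 0.72). The level of Cdh5 itself depended on the unit, with a ratio of fraction means of 18.2 in CPM and 10 in TPM. In iron negative 5L, 134 estimated counts of Cdh5 gave 7.22 TPM, and in iron positive 5L, 985 gave 15.8 TPM. This bears on every ratio over Cdh5, and its cause was not tested. Within the iron positive libraries the Ednra ratio to Hmox1 ranged over 6.12 log2 units. Edn1 gained on Pecam1 by 1.10 log2 units (-1.89 ± 0.52 in iron positive and -2.99 ± 0.33 in iron negative libraries, SD, n = 4 each, exact permutation p = 0.0286, adjusted p = 0.114), without overlap, or by 0.60 with overlap when 1 TPM was added. Its difference over Cdh5 was 0.29 (exact permutation p = 0.629, adjusted p = 0.718), or -0.13 with 1 TPM added and -0.68 from estimated counts. Ece1 lost on Cdh5 by a difference of -1.35 (exact permutation p = 0.0286, adjusted p = 0.114). This ratio was -0.58 ± 0.70 in iron positive and 0.76 ± 0.28 in iron negative libraries (SD, n = 4 each). From estimated counts the difference was -2.61 (exact permutation p = 0.0286, adjusted p = 0.0914).

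**Figure D3:**
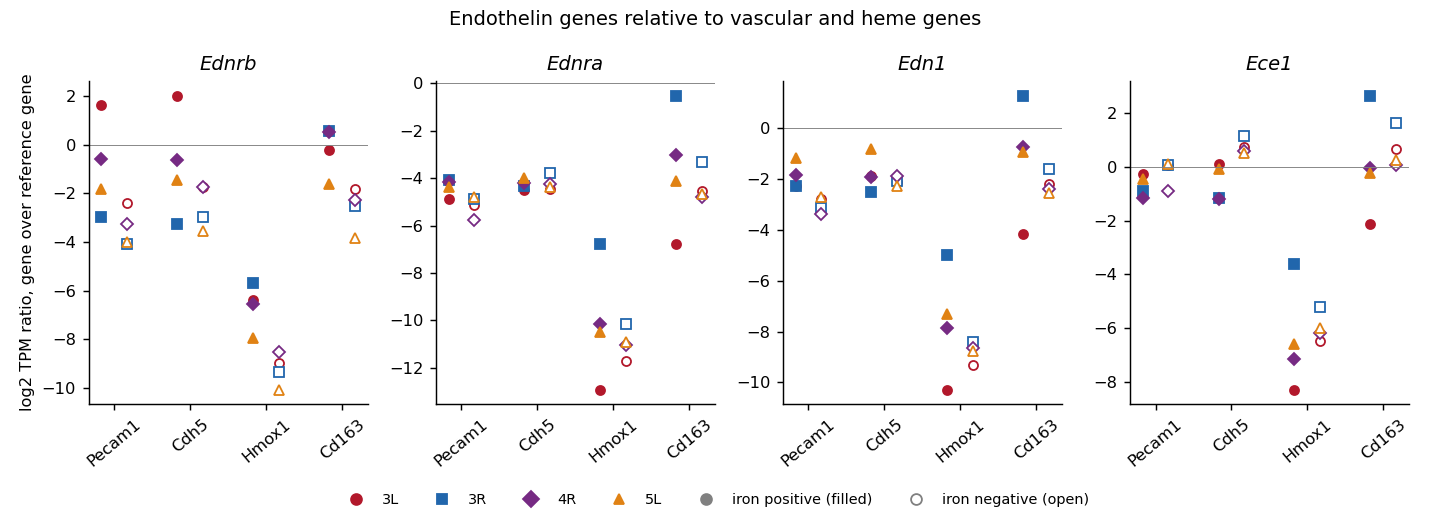
Log2 ratio of TPM + 0.1 of each endothelin gene over Pecam1, Cdh5, Hmox1 and Cd163, with filled symbols for iron positive and open symbols for iron negative libraries and axes that differ between panels. The Ednra ratio to Cdh5 spans 0.53 log2 units in the iron positive libraries. The ratios of Ednrb to Hmox1 and Cd163, of Edn1 to Pecam1 and of Ece1 to Cdh5 separate the fractions. Each has an adjusted p of 0.114 in the exact permutation test. With 1 TPM added, the fractions overlap for Ednrb to Cd163 and for Edn1 to Pecam1.

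By transcript, none of the 37714 transcripts tested passed in edgeR. All 7 tested transcripts of the endothelin genes had an unadjusted p under 0.05 and were higher, which held for 8.59% of transcripts tested. Limma voom called 0 of the 7 and gave an unadjusted p under 0.05 to 5. With the tag as a replicate block, 1.1% of transcripts passed, among them 3 of the 7, Ednrb-201 (adjusted p = 0.00733), Ednrb-202 (0.0178) and Ednrb-203 (0.0265). On simulated data of these transcripts, edgeR called 40 of 46 changed 8-fold and 42 of 48 changed 16-fold. The simulated counts had the same dispersion in both fractions and no assignment error. These rates therefore do not give the sensitivity in the real data.

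Ednrb reads were divided over 3 coding transcripts. Ednrb-202 and Ednrb-203 start 5 and 6 bases downstream of the RefSeq start, inside the promoter window printed above, and Ednrb-201 starts 701 bases upstream of it. Ednrb-202 held 36%, 47.9%, 45.8% and 17.8% of the gene's estimated counts in iron positive 3L, 3R, 4R and 5L, against 33.7%, 5.21e-08%, 8.16% and 0% in iron negative libraries with those tags. The iron negative shares are of only 29 to 91 estimated counts. Iron negative 3L alone among its fraction had a share near those of iron positive 3L, 3R and 4R. Ednrb-203, the transcript with the highest mean TPM, held 34.1%, 21.4%, 25.6% and 37.6% in iron positive 3L, 3R, 4R and 5L, against 35.4%, 59.6%, 44.7% and 54.1% in the iron negative libraries (difference -18.8 points, exact permutation p = 0.0571, adjusted p = 0.114 over 2 genes). The transcripts share most of their sequence, so these shares carry an assignment error that the tables do not give.

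**Figure D4:**
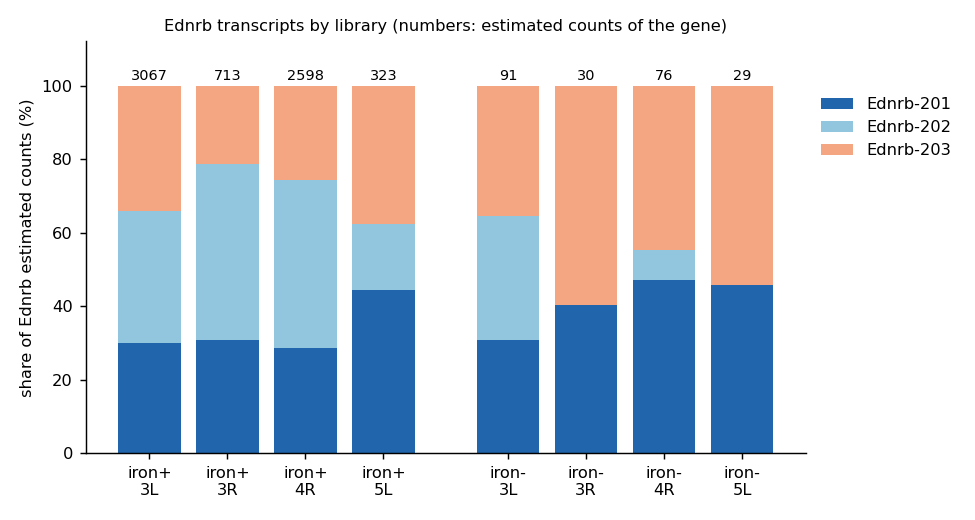
Share of Ednrb estimated counts on each of its 3 transcripts (percent, stacked), by library, with the gene's estimated counts above each bar. Ednrb-202 holds 17.8% to 47.9% in the iron positive libraries, and among iron negative libraries a comparable share, 33.7%, only in 3L.

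Ece1 reads lay almost wholly on Ece1-201, at 95.3%, 96.7%, 97.8% and 94.3% in iron positive 3L, 3R, 4R and 5L, against 97.5%, 98.5%, 97.9% and 96.1% in iron negative libraries of the same tags (exact permutation p = 0.171, adjusted p = 0.171). A short coding transcript, Ece1-204, which starts 51234 bases downstream of the first RefSeq start, took most of the rest. Ednra reads lay on Ednra-201 at 93.4% to 100% in iron positive and 100% in each iron negative library, and the others were on Ednra-202, a retained-intron transcript with 13.7 estimated counts at most.

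The genes around the receptors and ligands were described by lists of their roles. In peptide processing and clearance, edgeR called 0 of 2 tested genes (0 with an unadjusted p under 0.05), and DESeq2 called 0. Furin, a protease of the precursor, averaged 237 ± 20.9 CPM in iron positive and 221 ± 17.6 CPM in iron negative libraries (log2 fold change 0.10, adjusted p = 0.441, or 0.43 with adjusted p = 0.0173 under the macrophage scaling). Mme, neprilysin, which degrades endothelin, averaged 1.44 ± 1.09 CPM in iron positive and 0.736 ± 0.36 CPM in iron negative libraries (SD, n = 4 each; 0.96, adjusted p = 0.287). Kel, a red cell protease that can process endothelin, was at 0 throughout, and the mast cell proteases Cma1, Mcpt4 and Cpa3, which can make or degrade it, stayed at or below 0.349 CPM.

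Among G proteins and effectors of the receptors, 4 of 22 rose and 4 fell (median log2 fold change -0.07), or 8 and 5 with the tag as a block. Under the macrophage scaling 9 rose and 0 fell, and the median was 0.25. Over all 13343 genes tested, that scaling called 4378 higher and 61 lower, with a median of 0.32. Limma voom called 0 of the 22 higher and 2 lower. Plcb1, a Gq-activated phospholipase, had 4.29, 9.17, 8.63 and 2.25 CPM in iron positive 3L, 3R, 4R and 5L, against 0.489, 0.882, 0.896 and 0.32 CPM in iron negative libraries (3.24 ± 0.53, adjusted p = 0.0173). Its relative Plcb2, typical of blood cells, fell by 0.47 ± 0.07 (adjusted p = 0.0173), with 72.4 to 84.1 CPM in iron positive and 98 to 117 CPM in iron negative libraries. Under the macrophage scaling Plcb2 stood at -0.16 (adjusted p = 0.204), so its fall depends on the scaling. Nos3, the endothelial nitric oxide synthase that acts below EDNRB, had 6.53, 75.1, 47.6 and 13.2 CPM in iron positive 3L, 3R, 4R and 5L and 0.261 to 2.58 CPM in iron negative libraries (5.08 ± 0.96, adjusted p = 0.0184). Its order over the iron positive libraries was that of Edn1 and Ednra and not that of Ednrb.

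Of 9 genes of receptor desensitisation 3 rose and 0 fell (median log2 fold change 0.11), or 4 and 2 with the tag as a block and 5 and 0 under the macrophage scaling (median 0.45). Grk5, a kinase that phosphorylates active receptors, had 22.4, 31.3, 26.6 and 15.1 CPM in iron positive 3L, 3R, 4R and 5L and 6.72 to 7.41 CPM in iron negative libraries (1.73 ± 0.20, adjusted p = 0.0118). Rgs5, a pericyte regulator of Gq and Gi signalling, rose by 5.61 ± 0.98 (adjusted p = 0.0176) and Rgs4, its relative, by 3.83 ± 0.80 (adjusted p = 0.0217). Of 12 regulators of Edn1 transcription 2 rose and 0 fell (median log2 fold change -0.03), or 2 and 3 with the tag as a block and 4 and 0 under the macrophage scaling (median 0.28). Over all 13343 genes tested, that scaling called 4378 higher and 61 lower, with a median of 0.32. Limma voom called 1 of the desensitisation genes higher and 0 lower, and 0 of these regulators in either direction. Epas1, the hypoxia factor HIF-2 alpha, had 20.7, 140, 91.9 and 25.2 CPM in iron positive 3L, 3R, 4R and 5L and 2.51 to 4.17 CPM in iron negative libraries (4.32 ± 0.67, adjusted p = 0.0173). Gata2, an endothelial and blood stem cell factor, rose by 3.09 ± 0.70 (adjusted p = 0.026). Hif1a, Jun and Fos, which also act on Edn1, did not pass (0.20, -0.32 and -0.35). With the tag as a block Jun (-0.32, adjusted p = 0.0434) and Fos (-0.36, adjusted p = 0.0296) passed as lower, and under the macrophage scaling Hif1a passed as higher (0.51, adjusted p = 0.0122) while Jun and Fos stood at 0.00 and -0.04.

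In other vasoactive peptide systems, 9 of 11 tested genes of 18 listed rose and none fell (median 3.50). Limma voom called 1 of the 11, with all 11 fold changes positive. Bdkrb2, the bradykinin B2 receptor, had 1.79, 6.6, 5.8 and 2.6 CPM in iron positive 3L, 3R, 4R and 5L and 0 to 0.0975 CPM in iron negative libraries (adjusted p = 0.014). Adm, adrenomedullin, rose by 2.87 ± 0.49 (adjusted p = 0.0173) and Ramp2, an accessory protein of its receptor, by 5.58 ± 0.87 (adjusted p = 0.0173). Calcrl, the receptor itself, did not pass in edgeR (0.63 ± 0.20, adjusted p = 0.0711). The summed level of the list, 56.6 to 366 CPM in iron positive and 17.9 to 28.1 CPM in iron negative libraries, ran 3R, 4R, 5L, 3L, as Edn1 and Ednra did.

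**Figure D5:**
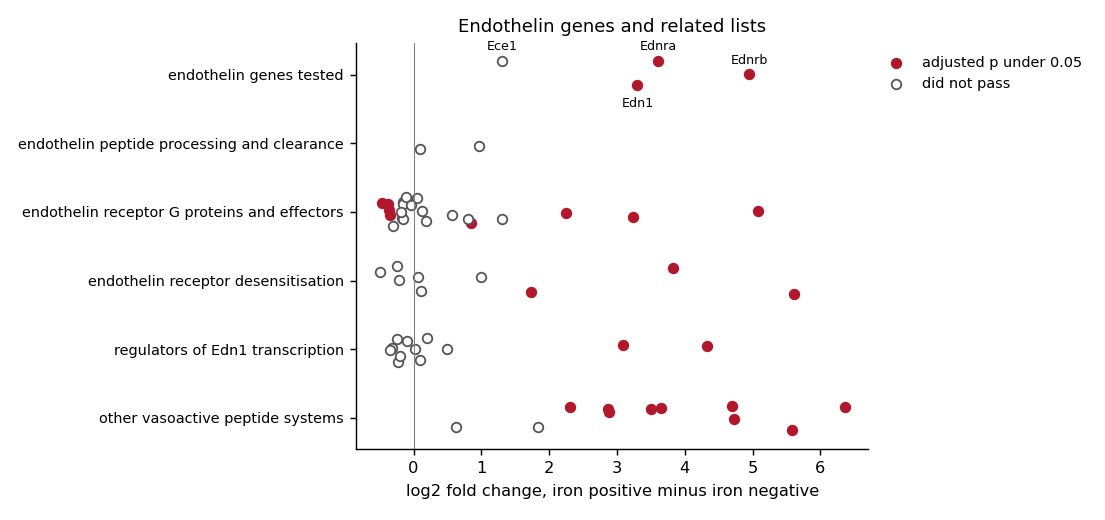
Log2 fold change, iron positive minus iron negative, of the 4 endothelin genes tested (top) and of the tested genes of 5 related lists (vertical positions within a list have no meaning), filled where edgeR's adjusted p was under 0.05. Ednrb at 4.95 lies to the right of Ednra and Edn1, and the G protein and desensitisation lists centre near 0 under TMM with a few large increases. Under the macrophage scaling the medians of these lists were 0.25 and 0.45, against 0.32 for all genes tested.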

How the data were processed

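RNA was sequenced in bulk from 4 iron positive and 4 iron negative samples. The deposited tables list, per the file headers, an estimated count for each transcript, not normalized, and the authors' TPM, scaled by effective length and library total, with transcript length and effective length as other values. They came from kallisto 0.46.2 on mm10, per the submitters' processing notes. The transcript release and strand setting are not given in the sources used here. Of 119414 transcripts, 116728 matched GENCODE release M21, and the rest held 0.888% to 0.961% of a library's estimated counts and were left out. Sums per gene, which do not use strand, were rounded, filtered with filterByExpr and scaled by TMM. Fractions were compared with edgeR 4.0.16 (R 4.3.3), with SEs approximated from the quasi-likelihood F. DESeq2 1.42.0 and limma 3.58.1 served as alternatives. Depth was 19.04 to 24.31 M estimated counts, and precision is given as SD over 4 libraries or SE.

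The endothelin genes and all gene lists were chosen with earlier results of these data known. Genes named in the text are the endothelin genes, Pecam1, Cdh5, Hmox1, Cd163, per list up to 3 genes past the threshold with the smallest adjusted p (otherwise the 2 most abundant), and the 3 genes most like each endothelin gene tested. Kel, Cma1, Mcpt4, Cpa3, Hif1a, Jun, Fos, Sox10, Prox1, Flt4, Pdpn, Lyve1, Calcrl and Kit were named after their values were seen. Other marker lists included keratinocytes (0 of 1 tested rose in edgeR, 0 at an unadjusted p under 0.05) and mast cells (1 of 1). The mast cell gene tested was Kit, which ran 3R, 4R, 5L, 3L, as the endothelial sum did. The other genes of the 6 listed for mast cells were untested and at or below 0.349 CPM. The rest were dendritic cells (1 of 5 rose, 1 fell), neutrophils (3 of 5), skeletal muscle (5 of 7) and red cells. Of 4 red cell genes 0 rose in edgeR, 3 with the tag as a block and 3 at an unadjusted p under 0.05.

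Same-tag libraries deviated together from their fraction's means (r = 0.50, 0.48, 0.27 and 0.29 across genes for 3L, 3R, 4R and 5L, all above 0.1). Unlike tags ran from -0.44 (iron positive 3L with iron negative 3R) to 0.24 (iron positive 4R with iron negative 3R). Some unlike tags thus also passed 0.1, and 4R and 5L exceeded the highest of them only narrowly. The pairing comes from the tags in the labels. No replicates agreed within counting noise (chi-square per gene of at least 9.43). On simulated data for the 13343 genes, edgeR called 43 of 50 genes with an 8-fold and 49 of 50 with a 16-fold change, and 4 of 13016 unchanged ones. The simulated counts had the same dispersion in both fractions, so these rates may not hold for the real data.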

Additional observations from a re-analysis of the deposited data

Results flagged for a closer look

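In 51 groups of 4 values (levels, ratios and shares of the endothelin and reference genes) the gap of the highest or lowest library to its nearest neighbour was divided by the range of its group. Chance puts about 1 in 20 groups above the 95% limit of Dixon for such a gap, and 2 were above it. The log2 TPM ratio of Ednra over Cd163 in iron negative 3R was -3.34, against -4.56 to -4.78 in the other iron negative libraries (0.846 of the range), where Ednra rests on 9 to 18 estimated counts. The log2 TPM ratio of Ece1 over Pecam1 in iron negative 4R was -0.90, against 0.06 to 0.10 in the others (0.956 of the range). In iron negative 4R, Pecam1 was the highest of its fraction (14.4 TPM) and Ece1 the lowest (7.69 TPM). In CPM, however, Ece1 was lowest in iron negative 5L (22.3, against 23.4 in 4R). Ece1 CPM was 71.9% of Pecam1 CPM in iron negative 4R, against 133%, 124% and 93% in 3L, 3R and 5L. Iron negative 4R thus stood less apart in that unit.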

How the results depend on the processing

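Over 28 alternative settings each, the log2 fold change ranged from 3.53 to 5.32 for Ednrb (called in 23), 1.38 to 4.03 for Ednra (19), 2.41 to 3.70 for Edn1 (23) and 0.77 to 1.71 for Ece1 (5), always positive. Of the 4 endothelin genes tested, 3 passed, against 0 with limma voom (all 4 had an unadjusted p under 0.05) and 0 to 4 with single libraries left out, including refits with DESeq2 that were added after the data were seen. Of their transcripts, against 0, 3 passed with the replicate block, 2 with relative log expression scaling, 2 with the strict filter of 1 CPM, 3 with no filter and 0 to 5 with a library left out. Genes called higher, against 1133, were 1705 with the replicate block, 4378 with macrophage scaling, 1703 with DESeq2, 189 with limma voom, 706 on log2(TPM + 0.1), 413 on log2(TPM + 1), 270 on log2(TPM + 0.1) with no filter and 0 to 1915 with a library left out. Genes called lower, against 695, were 1253, 61, 1070, 273, 270, 205, 83 and 0 to 1279 under these settings, 362 with library totals and 373 with length offsets. No other call of an endothelin gene changed with the block than that of Ece1. In edgeR with the block, Ednrb stood at 4.80 ± 0.24 (adjusted p = 6.33e-05) and Ednra at 3.24 ± 0.51 (adjusted p = 0.00731). Edn1 stood at 3.08 ± 0.38 (adjusted p = 0.00314). No setting combined the block with a library left out. The causes were not tested. Ratio and share tests stayed at 0 under every alternative run. With a library left out (smallest exact p 0.0571) or by sign flips over tags (0.125) they could not pass, which says nothing about stability. Depth limits Edn3 and Ece2, and the iron negative transcripts of Ednrb.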
